A study of Saccharomyces cerevisiae with 20 samples.

Results

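The regulators of glucose repression described here are 10 genes of the 7126 listed for each library: *CYC8* (YBR112C) and *TUP1* (YCR084C), which encode a corepressor, *NRG1* (YDR043C), *NRG2* (YBR066C), *MIG1* (YGL035C), *MIG2* (YGL209W) and *MIG3* (YER028C), which encode DNA-binding repressors, and *SNF1* (YDR477W), *SNF4* (YGL115W) and *REG1* (YDR028C), which encode a kinase, its activating subunit and a regulatory subunit of the opposing phosphatase. They were chosen by name, with earlier results of these data known. All 10 had enough counts to be tested, as had 5849 of all genes.

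Budding yeast prefers glucose and keeps the genes for other carbon sources off while glucose is plentiful. Mig1, with its relatives Mig2 and Mig3, and the zinc finger proteins Nrg1 and Nrg2 bind DNA upstream of such genes and recruit Cyc8-Tup1, a corepressor without DNA-binding activity of its own that also serves repressors outside carbon metabolism. When glucose runs low, the Snf1 kinase, with Snf4 as its activating subunit, phosphorylates Mig1 and relieves repression. In high glucose, the phosphatase Glc7 is directed by Reg1 to switch Snf1 off again. Much of this control acts on the proteins, and the values below are mRNA levels.

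The mutant strains are labelled as deleted for pairs of tRNA modification genes, which the counts bore out for each pair except *elp3 tcd1*, whose libraries kept *TCD1* reads. The groups were *elp3 deg1* (4 libraries), *urm1 deg1* (4), *elp3 tcd1* (3), *urm1 tcd1* (3) and WT (4), all labelled as *lys2* strains in the BY4741 background, a derivative of S288C. *ELP3* and *URM1* act in the modification of the wobble uridine of the tRNAs for glutamine, lysine and glutamate, *DEG1* in pseudouridylation of the anticodon stem-loop, and *TCD1* in the cyclic form of the threonylcarbamoyl adenosine next to the anticodon. Cells were cultured in synthetic minimal medium (YNB) supplied with lysine and were harvested at an OD600 of 1.0 after 10 cell divisions. Each mutant is a strain with deletions made by PCR cassettes, and the labels do not say whether libraries of a group came from separate cultures, so p-values measure only the spread between these samples.

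Libraries held 3273876 to 3926511 counts, so that the 3 counts needed to tell a gene from none came to 0.764 to 0.916 CPM (counts scaled to a common library total), a limit that covers counting error only. Pairs of replicates differed by more than counting error, with a chi-square of 1.14 to 2.47 per degree of freedom. Of the targeted genes, *ELP3* had 0 to 7 counts and *URM1* 0 or 1 count in the mutants that should lack them, against 425 to 500 and 87 to 121 in WT. *DEG1* had 0 counts in the *deg1* mutants (226 to 273 in WT), but *TCD1* had 147 to 185 counts in *elp3 tcd1* and 0 to 2 in *urm1 tcd1*, against 377 to 407 in WT. The *TCD1* counts of the *elp3 tcd1* libraries thus go against their label, loss of *TCD1* is not shown for them, and *elp3 tcd1* stands throughout for the libraries labelled so. Replicate 4 of each *tcd1* label went against its label and was left out: the library labelled *elp3 tcd1* had 345 *ELP3* and 0 *URM1* counts, and that labelled *urm1 tcd1* 5 *ELP3* and 174 *URM1* counts. *TCD1* had 0 counts in the first and 154 in the second, so each carried the pattern of the other label. Fits that include them under their labels mix both patterns, and calls lost there cannot be told from an effect of that mixing. In *urm1 tcd1*, chromosome XI genes had a median log2 difference of 1.00 to 1.01 from the WT mean, but no member lies on chromosome XI, and the chromosomes of the members had medians between -0.10 and 0.13 in every mutant library. *LYS2* had 14 to 102 counts in the mutant libraries used and 28 to 44 in WT, and *HIS3* 648 to 1820 and 1398 to 1689. Every group thus had *LYS2* reads despite the *lys2* label. The paper lists BY4741 as deleted for *his3*, *leu2*, *met15* and *ura3*, without *lys2*. *LEU2*, *MET17* and *URA3* had 0 counts in every library. Summed counts of 5 MATa markers were 1024 to 1140 in *elp3 deg1*, 11229 to 13313 in *urm1 deg1*, 1988 to 2277 in *elp3 tcd1*, 2949 to 3086 in *urm1 tcd1* and 3674 to 3956 in WT. Those of 4 MATalpha markers were 311 to 334 in *elp3 deg1*, 458 to 501 in *urm1 deg1*, 292 to 330 in *elp3 tcd1*, 188 to 220 in *urm1 tcd1* and 279 to 373 in WT. The part of the mating genes in the results below was not tested.

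Before the levels, the coding sequence of *CYC8* is shown for its glutamine codons, since the paper describes tRNA-Gln function as impaired in the *deg1* mutants. Decoding was not measured here, and a link between these codons and the *CYC8* mRNA level was not tested. *CYC8* fell under the *tcd1* labels too, as given below. Those strains are also labelled as deleted for *ELP3* or *URM1*, which act on the tRNA for glutamine as well. The 966 codons of *CYC8* on the minus strand of chromosome II (462870 to 465770, R64-1-1) include 128 CAA and 38 CAG codons, which makes the encoded protein 17.2% glutamine. Of 5602 tested protein-coding genes, 0.161% had a glutamine share as high, and the median was 3.7%. The stretch below covers codons 490 to 589 (chrII:464004-464303, minus strand, read 5′ to 3′ along the gene), with the glutamine codons CAA and CAG in capitals.
CYC8, codons 490 to 589: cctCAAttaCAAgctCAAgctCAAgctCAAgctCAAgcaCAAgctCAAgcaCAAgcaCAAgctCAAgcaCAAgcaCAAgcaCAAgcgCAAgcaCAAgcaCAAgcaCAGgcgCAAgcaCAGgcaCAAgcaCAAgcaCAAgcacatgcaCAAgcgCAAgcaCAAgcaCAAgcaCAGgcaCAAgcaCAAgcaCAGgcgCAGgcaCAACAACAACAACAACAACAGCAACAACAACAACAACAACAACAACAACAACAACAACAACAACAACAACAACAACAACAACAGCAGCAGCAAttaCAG

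Of these 100 codons, 64 encode glutamine (54 CAA and 10 CAG) and 32 alanine. The alternation of glutamine and alanine is followed by an unbroken run of 31 glutamine codons, codons 557 to 587, of which 27 are CAA. A run as long was present in 0.0357% of the 5602 genes, *CYC8* included. How many of the counted reads fall within this repeat was not determined.

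The partner gene *TUP1* (chromosome III, 260311 to 262452, minus strand) holds a shorter run of 7 glutamine codons, codons 101 to 107 (chrIII:262132-262152, minus strand), shown here with CAA in capitals.
TUP1, codons 101 to 107: CAAcagCAAcagcagCAAcag

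Tup1 is 8.56% glutamine and Mig1 8.13%, shares reached by 2.48% and 3.09% of genes. The remaining members range from 3.18% in Nrg2 to 6.54% in Mig2. For lysine, whose codon AAA is read by one of the tRNAs on which Tcd1 acts, *NRG2* stood at the other end. AAA made up 8.64% of its codons, a share reached by 1.87% of genes, against 1.97% of the codons of *CYC8* and a median of 4.12%. The bars of codon shares show these values for every member.

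**Figure D1:**
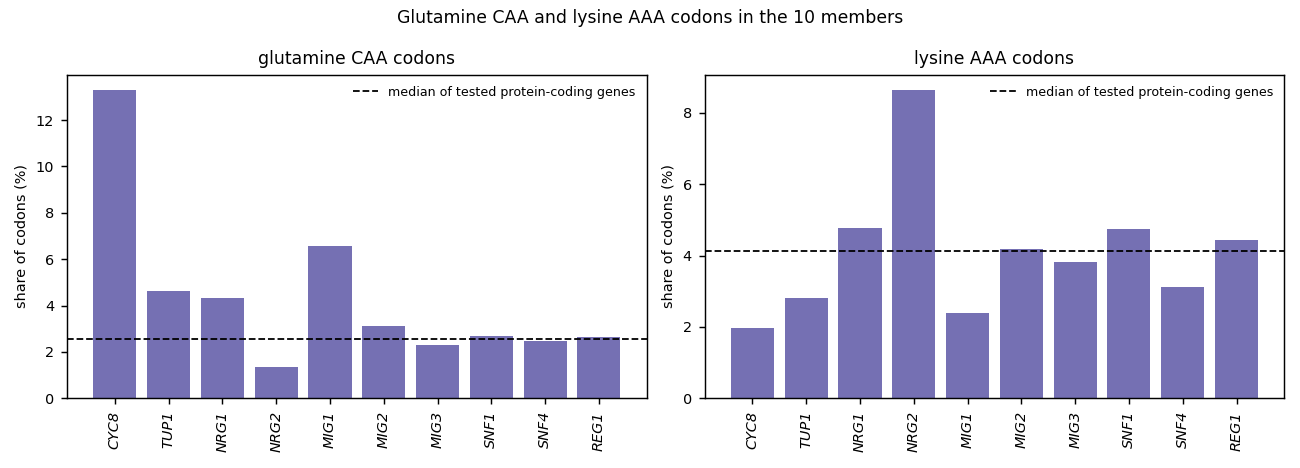
Share of codons (%) that are CAA (left) or AAA (right) in each of the 10 members, a bar for each gene, with the median of 5602 tested protein-coding genes as a dashed line. CAA makes up 13.3% of the *CYC8* codons and AAA 8.64% of those of *NRG2*, each the tallest bar of its panel.

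The windows of 250 bases upstream of the start codons were searched for 4 GC-rich words of the kind bound by Mig1 and for CCCCT, the stress response element that Nrg1 can also bind. The Mig1-type words were CCCCAC (in 3.46% of 5602 such windows), CCCCAG (2.64%), CCCCGC (2.27%) and CCCCGG (1.55%). Both strands were searched, and the words share their run of C but no word lies within another. Only *MIG1* (chromosome VII, 431548 to 433062, minus strand) had a Mig1-type word, where 9.44% of all windows did. Its matches are shown with 10 bases on either side and the word in capitals, the first on the opposite strand.
MIG1, 216 bases upstream (chrVII:433263-433288, minus strand): gacgagaaaaGTGGGGaagagcaagc
MIG1, 138 bases upstream (chrVII:433185-433210, minus strand): ttttttttcaCCCCAGtactcattaa

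CCCCT was present upstream of 3 of the 10 members, *TUP1*, *NRG2* and *REG1*, and in 19.1% of all windows. These are matches of letters only.

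Against WT, between 6 and 9 of the 10 members were called in each mutant, in strains where most of all genes were. A gene was called where its adjusted p in edgeR was 0.01 or less. In *elp3 deg1*, 2 of the 10 were higher and 5 lower, where 33.1% and 33.4% of the 5849 tested genes were (66.5% in either direction). The count in *urm1 deg1* was 4 higher and 5 lower, beside 33.2% and 33.1% of all (66.3%). For *elp3 tcd1* it was 0 higher and 6 lower, beside 32.1% and 32.3% (64.4%), where at an unadjusted p under 0.05 and with DESeq2 also 0 were higher. In *urm1 tcd1*, 2 were higher and 5 lower, beside 32.8% and 32.2% (65.0%). The median log2 fold changes of the 10 were -0.13, -0.09, -0.255 and -0.09 in this order, and those of all tested genes -0.00493, 0.0115, 0.00821 and -0.0159.

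Counted by library, 3 of the 10 members lay above WT in every *elp3 deg1* library and 5 below, where 33.3% and 33.7% of tested genes did (67.1% without overlap). In *urm1 deg1*, 4 lay above and 5 below, beside 35.2% and 31.1% (66.3%). In *elp3 tcd1*, 0 lay above and 5 below, beside 35.1% and 33.5% (68.6%). In *urm1 tcd1*, 2 lay above and 5 below, beside 34.4% and 35.9% (70.3%).

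*CYC8*, *NRG1*, *MIG3* and *SNF1* fell in all 4 mutants, and no member rose in all 4. Of all tested genes, 10.7% fell and 9.97% rose in all 4. *MIG2* was called in all 4 but not in the same direction, as were 8.14% of genes. The 4 comparisons share the WT libraries, so their calls are not independent of each other. The paper had already reported *CYC8* and *NRG1* as lower in each mutant from these same data. The number of members that fell in all 4 is therefore a description and not a test. The plot of fold changes gives all 40 values.

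**Figure D2:**
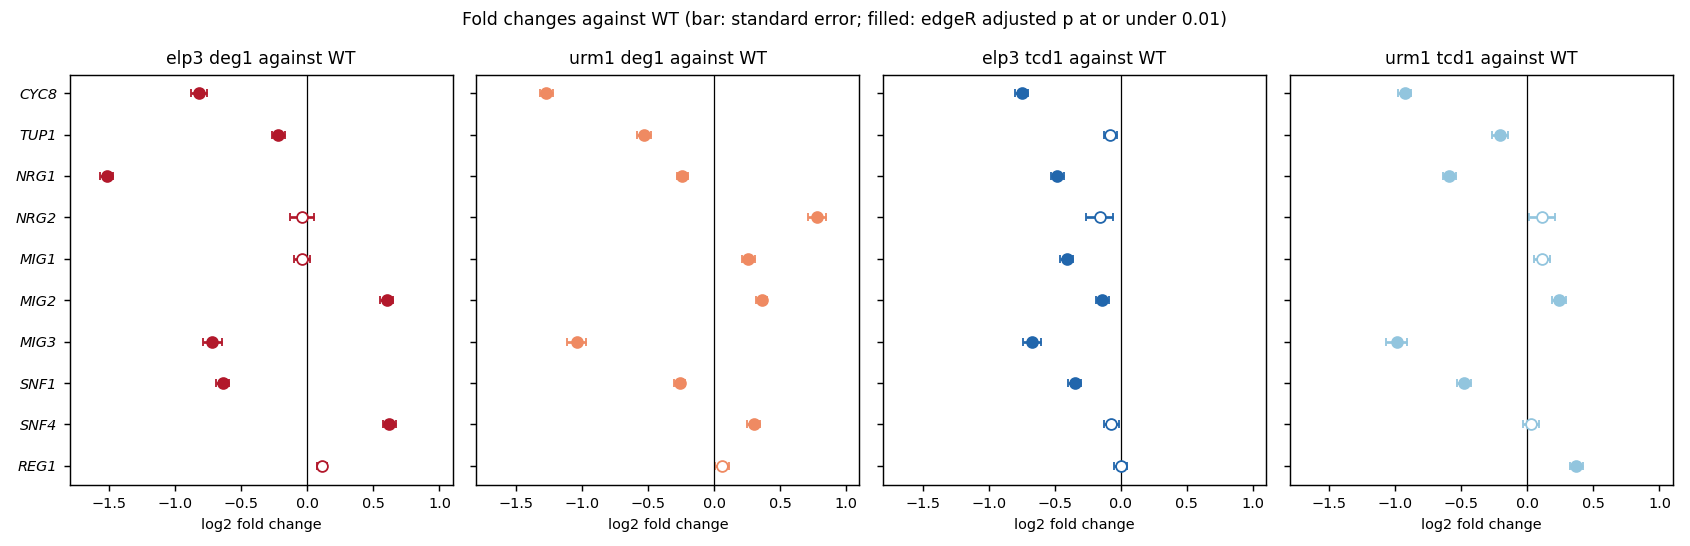
Log2 fold change of each member against WT in the 4 mutants, with the standard error as a bar and filled points for called genes (adjusted p of 0.01 or less in edgeR). *CYC8*, *NRG1*, *MIG3* and *SNF1* lie left of 0 in every panel, and *NRG1* in *elp3 deg1* lies farthest out at -1.52.

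*CYC8* fell in all 4 mutants and *TUP1* in 3 of them, and the log2 fold change was farther from 0 for *CYC8* in each. Cyc8 is the subunit that contacts DNA-binding repressors, and Tup1 is the subunit that contacts chromatin and the transcription machinery. *CYC8* stood at 145, 131, 121 and 114 CPM in *elp3 deg1*, at 95.7, 100, 97.6 and 88.4 CPM in *urm1 deg1*, at 143, 125 and 135 CPM in *elp3 tcd1* and at 118, 115 and 120 CPM in *urm1 tcd1*, against 215, 234, 233 and 222 CPM in WT. Every mutant library lay below every WT library, and the *urm1 deg1* libraries lay below those of the other mutants. The log2 fold change was -0.82 (standard error 0.06, adjusted p = 1e-14) in *elp3 deg1*, -1.27 (0.05, adjusted p = 1e-26) in *urm1 deg1*, -0.75 (0.05, adjusted p = 1.7e-20) in *elp3 tcd1* and -0.93 (0.05, adjusted p = 1.2e-17) in *urm1 tcd1*. These are levels 1.76-fold, 2.41-fold, 1.69-fold and 1.91-fold lower than in WT. As in any bulk sample, fewer cells with a transcript and less of it per cell cannot be told apart.

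In *urm1 deg1*, 8.31% of all tested genes changed by as much as *CYC8*, and in the other 3 mutants between 15.9% and 18.6% did. With the 2 left-out libraries included under their labels, *CYC8* was still lower in *elp3 tcd1* (-0.79, adjusted p = 5.7e-05, the range over its alternatives being 2e-37 to 5.7e-05) and in *urm1 tcd1* (-0.87, adjusted p = 4e-05, range 1.9e-37 to 4e-05).

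*TUP1* stood at 122, 119, 121 and 125 CPM in *elp3 deg1*, at 103, 102, 99.2 and 97.8 CPM in *urm1 deg1*, at 143, 124 and 138 CPM in *elp3 tcd1* and at 124, 122 and 120 CPM in *urm1 tcd1*, against 142, 139, 149 and 139 CPM in WT. Only the *elp3 tcd1* libraries overlapped with WT. *TUP1* fell by 0.22 (standard error 0.05, adjusted p = 0.0002) in *elp3 deg1*, by 0.53 (0.05, adjusted p = 1.2e-12) in *urm1 deg1* and by 0.21 (0.06, adjusted p = 0.0012) in *urm1 tcd1* on the log2 scale. In *elp3 tcd1* the value was -0.08, with a 95% interval of -0.19 to 0.02 (adjusted p = 0.17). A change at least as large as that in *elp3 deg1* was seen in 67.0% of tested genes. The call in *urm1 tcd1* was lost with DESeq2 (adjusted p = 0.011) and with the left-out libraries (-0.18, adjusted p = 0.04), the range over its alternatives being 0.00075 to 0.04.

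Within a library, the ratio of *CYC8* to *TUP1* counts per kb of gene was 0.674 to 0.882 in *elp3 deg1*, 0.668 to 0.726 in *urm1 deg1*, 0.722 to 0.743 in *elp3 tcd1* and 0.694 to 0.736 in *urm1 tcd1*, against 1.12 to 1.25 in WT. *CYC8* mRNA thus exceeded *TUP1* mRNA per length in each WT library and was below it in each mutant library. The ratio was given no test, since both genes were chosen for this account. The summed level of the pair per kb was 101 ± 4.34 CPM in *elp3 deg1*, 79.8 ± 2.65 in *urm1 deg1* (SD, n = 4 each), 109 ± 7.61 in *elp3 tcd1* and 97.6 ± 1.01 in *urm1 tcd1* (n = 3 each), against 144 ± 4.33 in WT (n = 4).

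The 5 DNA-binding repressors did not share a direction: *NRG1* and *MIG3* fell in all 4 mutants, while *NRG2*, *MIG1* and *MIG2* each rose in at least 1. Per kb of gene, *NRG1* was the most abundant member in WT (449 CPM per kb), followed by *MIG2* (235), and *NRG2* the least (63.0).

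*NRG1* lies on chromosome IV (542674 to 543369, minus strand) and encodes a repressor of glucose-repressed genes that also acts in filamentous growth. Its level was 96.7, 119, 109 and 109 CPM in *elp3 deg1*, 266, 280, 274 and 258 CPM in *urm1 deg1*, 233, 243 and 204 CPM in *elp3 tcd1* and 207, 211 and 203 CPM in *urm1 tcd1*, against 316, 299, 305 and 331 CPM in WT. The *elp3 deg1* libraries lay far below all others, and no mutant library reached the WT range. In *elp3 deg1* the log2 fold change was -1.52 (standard error 0.05, adjusted p = 5e-23), a level 2.88-fold lower and a change matched in size by 5.06% of tested genes. It also fell in *urm1 deg1* (-0.24, standard error 0.04, adjusted p = 1.1e-06), in *elp3 tcd1* (-0.48, 0.05, adjusted p = 9e-14) and in *urm1 tcd1* (-0.59, 0.05, adjusted p = 2e-13).

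*NRG2*, on chromosome II (370037 to 370699, minus strand), encodes the close relative of Nrg1. Its level was 41.6, 38.9, 36.2 and 45.1 CPM in *elp3 deg1*, 69.1, 73.8, 74.4 and 74.8 CPM in *urm1 deg1*, 32, 43.1 and 38.9 CPM in *elp3 tcd1* and 45.1, 48.7 and 41.2 CPM in *urm1 tcd1*, against 46.5, 39.2, 39.7 and 41.7 CPM in WT. Only *urm1 deg1* stood apart. There *NRG2* rose by 0.78 on the log2 scale (standard error 0.07, adjusted p = 5.3e-13), or 1.72-fold. The other values were -0.04 (95% interval -0.22 to 0.14, adjusted p = 0.7) in *elp3 deg1*, -0.16 (-0.35 to 0.04, adjusted p = 0.15) in *elp3 tcd1* and 0.11 (-0.08 to 0.31, adjusted p = 0.3) in *urm1 tcd1*, and at 117 to 169 counts per library outside *urm1 deg1* *NRG2* was the member with the widest intervals. The ratio of *NRG1* to *NRG2* counts per kb was 2.21 to 2.93 in *elp3 deg1*, 3.29 to 3.67 in *urm1 deg1*, 4.99 to 6.92 in *elp3 tcd1* and 4.13 to 4.70 in *urm1 tcd1*, against 6.48 to 7.57 in WT.

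*MIG1*, which encodes the best known repressor of the pathway and a target of Snf1, was called in 2 of the mutants, in opposite directions. Its level was 175, 167, 178 and 143 CPM in *elp3 deg1*, 200, 216, 215 and 200 CPM in *urm1 deg1*, 130, 132 and 126 CPM in *elp3 tcd1* and 178, 200 and 172 CPM in *urm1 tcd1*, against 156, 182, 178 and 168 CPM in WT. The *urm1 deg1* libraries lay above WT, those of *elp3 tcd1* below, and those of the other mutants overlapped with WT. *MIG1* rose by 0.26 (standard error 0.05, adjusted p = 4.8e-06) in *urm1 deg1* and fell by 0.41 (0.05, adjusted p = 6.1e-10) in *elp3 tcd1*. The values were -0.04 (95% interval -0.16 to 0.07, adjusted p = 0.5) in *elp3 deg1* and 0.11 (-0.01 to 0.22, adjusted p = 0.093) in *urm1 tcd1*. With the left-out libraries, the call in *elp3 tcd1* was lost (-0.27, adjusted p = 0.088, the range over its alternatives being 1.1e-12 to 0.088).

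*MIG2* (chromosome VII, 95858 to 97006, plus strand) encodes a repressor that shares targets with Mig1. Its level was 427, 445, 384 and 378 CPM in *elp3 deg1*, 362, 337, 355 and 354 CPM in *urm1 deg1*, 254, 242 and 242 CPM in *elp3 tcd1* and 320, 329 and 303 CPM in *urm1 tcd1*, against 248, 284, 295 and 252 CPM in WT. The libraries of 3 mutants lay wholly above WT, and *elp3 tcd1* overlapped with its lower libraries. *MIG2* rose by 0.60 (standard error 0.05, adjusted p = 3.1e-12) in *elp3 deg1*, by 0.36 (0.04, adjusted p = 5.1e-10) in *urm1 deg1* and by 0.24 (0.05, adjusted p = 7.6e-05) in *urm1 tcd1*. In *elp3 tcd1* it fell by 0.14 (0.05, adjusted p = 0.0064), a call that was lost without *elp3 tcd1* replicate 2 (-0.13, adjusted p = 0.023) or 3 (-0.13, 0.041), without WT replicate 2 (-0.11, 0.042) or 3 (-0.10, 0.067), with DESeq2 (-0.14, 0.029), in a fit over 18 libraries (-0.13, 0.029) and with the left-out libraries (-0.01, 0.93), where its adjusted p ranged from 0.00057 to 0.93. The left-out libraries also ended the call in *urm1 tcd1* (0.18, adjusted p = 0.11, range 6.3e-06 to 0.11).

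*MIG3* (chromosome V, 210692 to 211876, minus strand), another relative, fell in every mutant. Its level was 70.7, 71.7, 61.5 and 59.0 CPM in *elp3 deg1*, 54.9, 49.0, 51.9 and 58.5 CPM in *urm1 deg1*, 75.1, 64.6 and 67.0 CPM in *elp3 tcd1* and 53.8, 58.6 and 50.8 CPM in *urm1 tcd1*, against 95.7, 112, 119 and 109 CPM in WT. All mutant libraries lay below all WT libraries, and those with *urm1* lay lower than those with *elp3*. The log2 fold change was -0.72 (standard error 0.07, adjusted p = 7.4e-11) in *elp3 deg1*, -1.04 (0.07, adjusted p = 2.9e-18) in *urm1 deg1*, -0.67 (0.07, adjusted p = 1.2e-12) in *elp3 tcd1* and -0.99 (0.08, adjusted p = 2e-13) in *urm1 tcd1*. With *MIG2* above WT in most mutants, the ratio of *MIG2* to *MIG3* counts per kb was 6.24 to 6.61 in *elp3 deg1*, 6.25 to 7.09 in *urm1 deg1*, 3.49 to 3.86 in *elp3 tcd1* and 5.79 to 6.14 in *urm1 tcd1*, against 2.38 to 2.68 in WT.

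**Figure D3:**
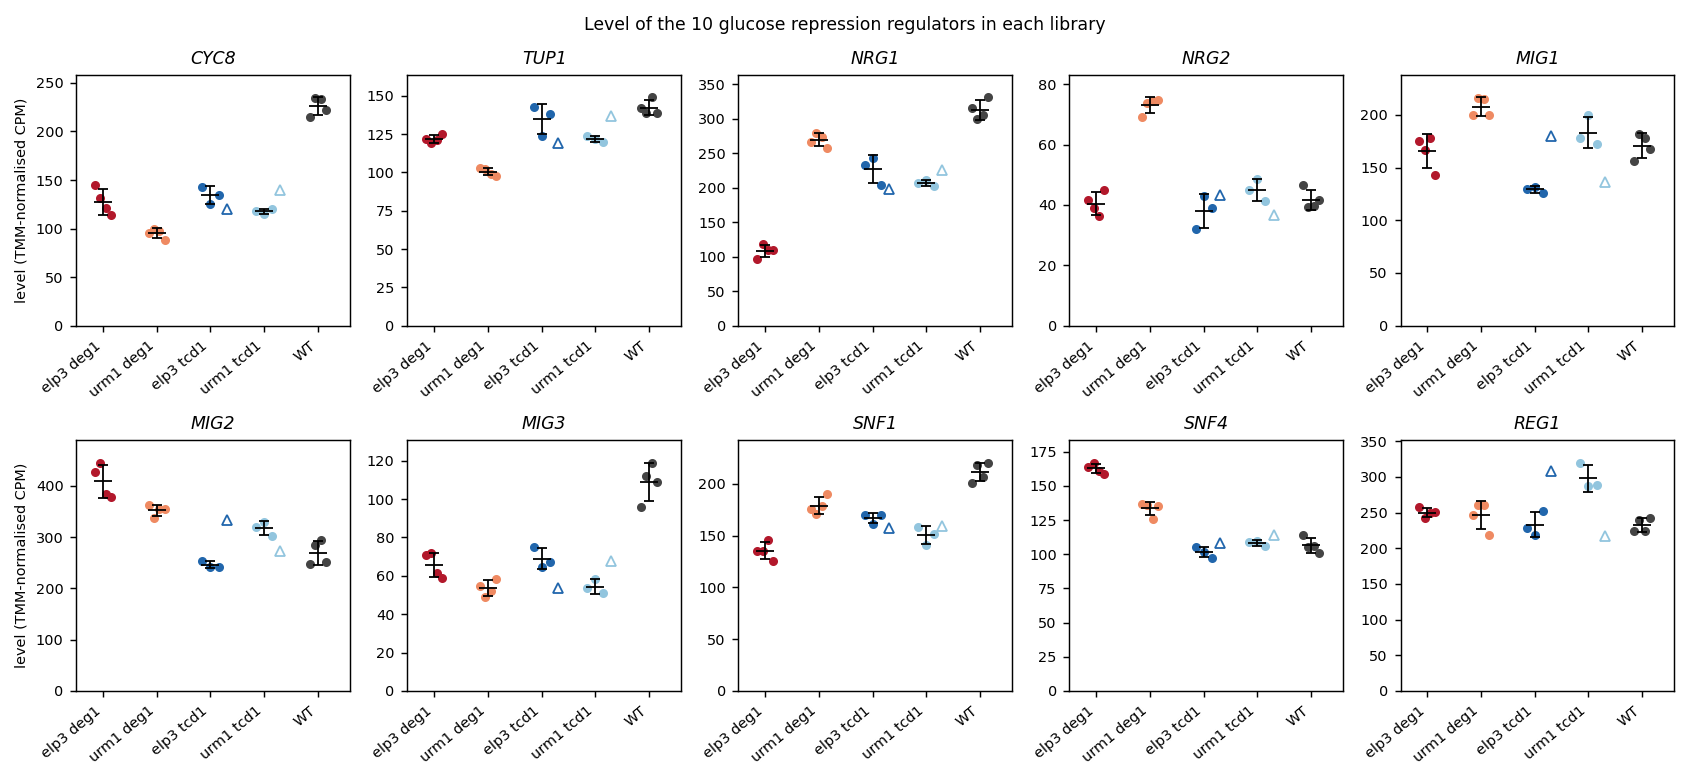
Level (TMM-normalised CPM) of each member in every library, with the mean and SD of each group (n = 4 in the *deg1* mutants and WT, n = 3 under the *tcd1* labels), and open triangles for replicate 4 of the *tcd1* labels, which enters no mean. The WT points lie above all filled mutant points for *CYC8*, *NRG1*, *MIG3* and *SNF1*, and the *urm1 deg1* points lie above all others for *NRG2*.

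**Figure D4:**
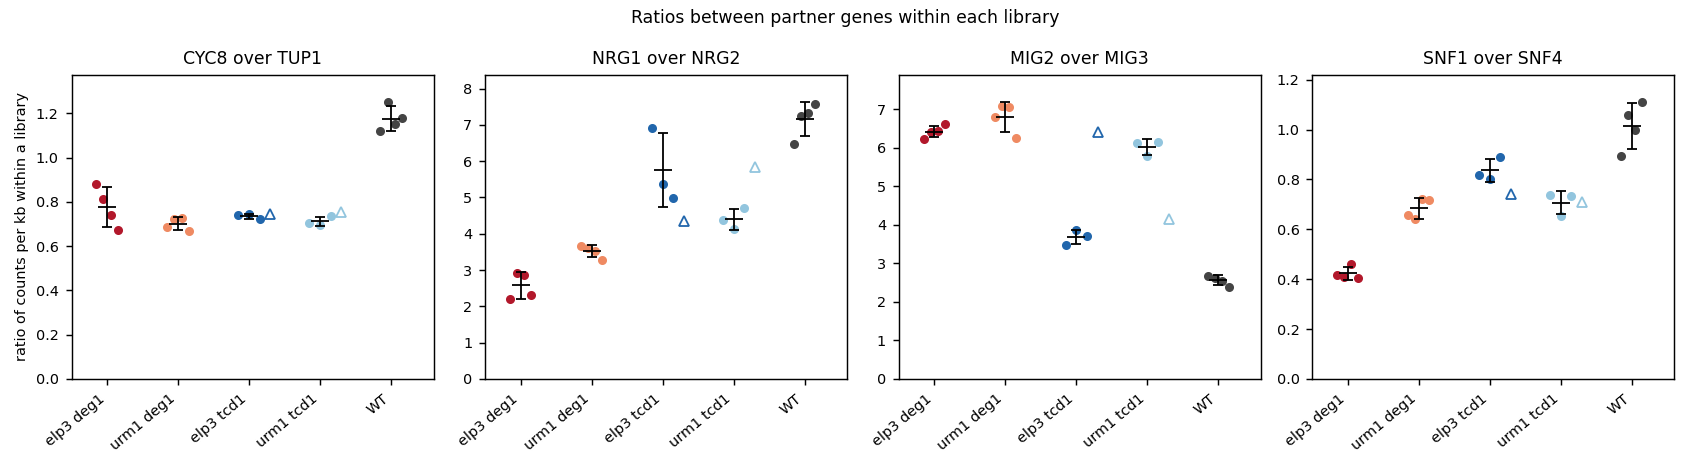
Ratio of counts per kb between partner genes within each library, with the mean and SD of each group and open triangles for replicate 4 of the *tcd1* labels. *CYC8* over *TUP1* is at most 0.882 in the mutants and 1.12 to 1.25 in WT, and *MIG2* over *MIG3* is at least 3.49 in the mutants and 2.38 to 2.68 in WT.

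Of the kinase and its partners, the catalytic subunit fell in each mutant while its activating subunit fell in none. *SNF1* (chromosome IV, 1412373 to 1414274, plus strand) stood at 135, 135, 146 and 126 CPM in *elp3 deg1*, 176, 171, 179 and 190 CPM in *urm1 deg1*, 170, 161 and 170 CPM in *elp3 tcd1* and 158, 141 and 152 CPM in *urm1 tcd1*, against 201, 218, 207 and 220 CPM in WT. No mutant library reached the WT range. The log2 fold change was -0.64 (standard error 0.05, adjusted p = 2.4e-13) in *elp3 deg1*, -0.26 (0.04, adjusted p = 1.5e-06) in *urm1 deg1*, -0.35 (0.05, adjusted p = 2.9e-09) in *elp3 tcd1* and -0.48 (0.05, adjusted p = 5.3e-10) in *urm1 tcd1*.

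*SNF4* (chromosome VII, 292033 to 293001, plus strand) stood at 164, 167, 161 and 159 CPM in *elp3 deg1*, 137, 136, 126 and 135 CPM in *urm1 deg1*, 105, 102 and 97.6 CPM in *elp3 tcd1* and 109, 110 and 106 CPM in *urm1 tcd1*, against 114, 105, 106 and 101 CPM in WT. Both *deg1* mutants lay above WT, and the libraries of both *tcd1* labels overlapped with it. *SNF4* rose by 0.62 (standard error 0.05, adjusted p = 2e-12), or 1.53-fold, in *elp3 deg1* and by 0.30 (0.05, adjusted p = 2e-06), or 1.23-fold, in *urm1 deg1*. The values were -0.07 (95% interval -0.19 to 0.05, adjusted p = 0.27) in *elp3 tcd1* and 0.03 (-0.09 to 0.16, adjusted p = 0.64) in *urm1 tcd1*. The ratio of *SNF1* to *SNF4* counts per kb was 0.403 to 0.461 in *elp3 deg1*, 0.641 to 0.723 in *urm1 deg1*, 0.803 to 0.890 in *elp3 tcd1* and 0.653 to 0.737 in *urm1 tcd1*, against 0.895 to 1.11 in WT.

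*REG1* (chromosome IV, 497835 to 500879, minus strand) was called in a single mutant. Its level was 258, 242, 249 and 251 CPM in *elp3 deg1*, 246, 260, 260 and 219 CPM in *urm1 deg1*, 229, 218 and 252 CPM in *elp3 tcd1* and 320, 287 and 288 CPM in *urm1 tcd1*, against 224, 239, 224 and 242 CPM in WT. The *urm1 tcd1* libraries lay highest, those of *elp3 deg1* lay just above WT, and those of *urm1 deg1* and *elp3 tcd1* overlapped with WT. In *urm1 tcd1* it rose by 0.37 (standard error 0.05, adjusted p = 1.6e-08), a call that was lost with the left-out libraries (0.26, adjusted p = 0.079, range 1.6e-11 to 0.079). The values were 0.11 (95% interval 0.03 to 0.20, adjusted p = 0.02) in *elp3 deg1*, 0.06 (-0.03 to 0.15, adjusted p = 0.23) in *urm1 deg1* and 0.00 (-0.09 to 0.09, adjusted p = 0.99) in *elp3 tcd1*. That in *elp3 deg1* passed the threshold without *elp3 deg1* replicate 2 (0.13, adjusted p = 0.0095, range 0.0095 to 0.074).

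Summed per kb, the 5 DNA-binding repressors came to 737 ± 39.8 CPM in *elp3 deg1*, 986 ± 12.0 in *urm1 deg1*, 741 ± 34.0 in *elp3 tcd1* and 808 ± 35.2 in *urm1 tcd1*, against 952 ± 20.8 in WT (SD, with n as above). *NRG1* and *MIG2* make up most of these sums. *SNF1*, *SNF4* and *REG1* together came to 321 ± 5.86, 313 ± 3.01, 269 ± 6.35 and 289 ± 10.1 CPM in the same order of mutants, against 297 ± 4.21 in WT.

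The mutants were then compared with each other in a joint fit of the 18 libraries. Between *elp3 deg1* and *urm1 deg1*, which share the loss of *DEG1*, 5 members were higher and 4 lower in *elp3 deg1*, beside 31.4% and 31.0% of all tested genes (62.4% in either direction). All 9 had groups without overlap, beside 32% of genes above and 30.0% below (62.1%). Of the members, *NRG1* gave the largest difference, -1.32 (standard error 0.05, adjusted p = 4.4e-26), 2.49-fold lower in *elp3 deg1*, and 4.34% of tested genes differed as much. *NRG2* (-0.85, adjusted p = 2.4e-13), *SNF1* (-0.41, adjusted p = 7.5e-10) and *MIG1* (-0.33, adjusted p = 5.9e-07) were also lower in *elp3 deg1*. *CYC8* (0.42, adjusted p = 7.4e-08), *TUP1* (0.27, adjusted p = 1.5e-05), *SNF4* (0.28, adjusted p = 9.6e-07), *MIG2* (0.21, adjusted p = 9.7e-05) and *MIG3* (0.29, adjusted p = 0.0014) were higher. *REG1* gave 0.02 (95% interval -0.08 to 0.11). The call of *MIG3* was lost without *elp3 deg1* replicate 1 (0.25, adjusted p = 0.010, range 0.0004 to 0.03), and with the left-out libraries so were those of *MIG1* (adjusted p = 0.023, range 6.9e-08 to 0.023), *MIG2* (0.068, range 9.7e-06 to 0.068) and *MIG3* (0.03). The left-out libraries belong to neither of these groups and enter through the joint fit. With them *MIG1*, *MIG2* and *MIG3* kept their log2 values (-0.33, 0.21 and 0.29). Their standard errors were larger, for *MIG2* 0.10 in place of 0.05.

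Between *elp3 tcd1* and *urm1 tcd1*, of which only *urm1 tcd1* lacked *TCD1* reads, 1 member was higher and 3 were lower in *elp3 tcd1*, beside 30.3% and 29.7% of tested genes (60.0% in either direction). In every library, 4 lay above and 4 below, beside 36.9% and 33.9% (70.8%). *MIG1* (-0.51, standard error 0.07, adjusted p = 9.6e-09), *MIG2* (-0.37, 0.06, adjusted p = 4.1e-07) and *REG1* (-0.36, 0.06, adjusted p = 3.7e-07) were lower in *elp3 tcd1*, and *MIG3* was higher (0.34, 0.10, adjusted p = 0.0017). This last call was lost without *elp3 tcd1* replicate 1 (0.27, adjusted p = 0.023) and without *urm1 tcd1* replicate 3 (0.29, adjusted p = 0.016), its range being 0.00063 to 0.25. *CYC8* gave 0.19 (adjusted p = 0.017), *TUP1* 0.14 (0.035) and *NRG2* -0.26 (0.03), and each passed the threshold without *elp3 tcd1* replicate 2 (0.23, 0.19 and -0.35, adjusted p = 0.0072, 0.0068 and 0.0069). *NRG1* gave 0.12 (0.064) and passed it without *elp3 tcd1* replicate 3 (0.19, adjusted p = 0.0058). The ranges over alternatives of these 4 adjusted p-values were 0.0072 to 0.41, 0.0068 to 0.45, 0.0069 to 0.36 and 0.0058 to 0.58. With the left-out libraries under their labels, which mixes the *ELP3* and *URM1* patterns within both groups, none of the 10 was called, nor was any gene in edgeR. In that edgeR fit, 860 genes were higher and 1047 lower at an unadjusted p under 0.05.

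*elp3 deg1* against *elp3 tcd1*, which share the loss of *ELP3* and of which the second kept *TCD1* reads, had 3 members higher and 2 lower, beside 30.0% and 29.9% of tested genes (59.9% in either direction). The same numbers, 3 and 2, lay above or below in every library, beside 32.3% and 33.0% (65.3%). *NRG1* (-1.06, standard error 0.06, adjusted p = 7.8e-21) and *SNF1* (-0.31, 0.05, adjusted p = 3.4e-06) were lower in *elp3 deg1*. *MIG2* (0.73, 0.05, adjusted p = 9e-17), *SNF4* (0.68, 0.05, adjusted p = 2.1e-15) and *MIG1* (0.36, 0.06, adjusted p = 2.7e-06) were higher in *elp3 deg1*, the last not with the left-out libraries (0.22, adjusted p = 0.12, range 4.6e-08 to 0.12). *CYC8* gave -0.07 (95% interval -0.19 to 0.05) and *MIG3* -0.07 (-0.23 to 0.09). *TUP1*, at -0.15 (adjusted p = 0.012), passed the threshold without *elp3 tcd1* replicate 2 (-0.20, adjusted p = 0.0019, range 0.0019 to 0.12).

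*urm1 deg1* against *urm1 tcd1* had 6 members higher and 3 lower, beside 34.4% and 33.9% of tested genes (68.3% in either direction). In every library, 5 lay above and 3 below, beside 37.1% and 35.8% (72.9%). *NRG2* (0.70, standard error 0.09, adjusted p = 1.3e-09), *NRG1* (0.38, 0.05, adjusted p = 3.2e-08), *SNF4* (0.30, 0.06, adjusted p = 9.5e-06) and *SNF1* (0.25, 0.06, adjusted p = 7.9e-05) were higher in *urm1 deg1*. *CYC8* (-0.30, 0.07, adjusted p = 0.00019), *TUP1* (-0.28, 0.06, adjusted p = 4.3e-05) and *REG1* (-0.28, 0.05, adjusted p = 1e-05) were lower, the last not with the left-out libraries (-0.17, adjusted p = 0.17, range 1.6e-06 to 0.17). *SNF4*, *MIG1* and *MIG2* were thus called higher under the *deg1* than under the *tcd1* label beside either *elp3* or *urm1*. *MIG1* (0.18, adjusted p = 0.0059) and *MIG2* (0.15, adjusted p = 0.0099) lay at the threshold: the calls were lost with DESeq2 (0.17 and 0.13, adjusted p = 0.024 and 0.035) and without *urm1 tcd1* replicate 3 (0.14 and 0.12, adjusted p = 0.063 and 0.074), among others, and their adjusted p-values ranged from 0.00086 to 0.063 and from 0.0022 to 0.078. *MIG3* gave -0.02 (95% interval -0.20 to 0.17).

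Whether *elp3* and *urm1* strains differed in the same way beside *deg1* and beside the *tcd1* label was tested as an interaction, which includes the difference in *TCD1* reads between the libraries labelled *tcd1* and in which 3 members were higher and 3 lower, beside 33.9% and 33.6% of tested genes (67.6% in either direction). *NRG1* gave the largest value, -1.44 (standard error 0.08, adjusted p = 5.5e-21), the difference between -1.32 for *elp3* against *urm1* beside *deg1* and 0.12 beside *tcd1*. *NRG2* (-0.60, 0.13, adjusted p = 9.3e-05) and *SNF1* (-0.56, 0.08, adjusted p = 1.8e-08) followed. *MIG2* (0.58, 0.08, adjusted p = 3e-09), *SNF4* (0.38, 0.08, adjusted p = 4.5e-05) and *REG1* (0.38, 0.08, adjusted p = 1.9e-05) went the other way, although with the left-out libraries *MIG2* (0.41, adjusted p = 0.02, range 1.8e-12 to 0.02) and *REG1* (0.16, adjusted p = 0.37, range 2.7e-06 to 0.37) were not called. For *CYC8* (0.23, adjusted p = 0.026) and *MIG1* (0.18, 0.066) the call depended on *elp3 deg1* replicate 4, without which they gave 0.28 (adjusted p = 0.0055, range 0.0055 to 0.11) and 0.24 (adjusted p = 0.0081, range 0.0081 to 0.80).

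Other genes of glucose regulation were counted in 6 lists set by function, and the plot of the named genes gives their values. Of all tested genes, 32.1% to 33.2% were called higher and 32.2% to 33.4% lower in each of these comparisons. Among the genes called higher in *urm1 tcd1*, *ELM1*, *RGT1*, *HAP4*, *JEN1* and *PHD1* lie on chromosome XI, with log2 fold changes of 1.31, 0.79, 0.45, 0.53 and 0.32 there, beside that chromosome's median of 1.00 to 1.01. Among 10 further genes of the Snf1 pathway, 4 were higher and 3 lower in *elp3 deg1*, with 4 and 2 in *urm1 deg1*, 3 and 3 in *elp3 tcd1*, and 3 and 3 in *urm1 tcd1*. *HXK2*, whose product is the main hexokinase in glucose and works with Mig1 in repression, fell in all 4 mutants. Its mean level was 1013 CPM in *elp3 deg1*, 472 in *urm1 deg1*, 296 in *elp3 tcd1* and 740 in *urm1 tcd1*, against 1372 CPM in WT, with log2 fold changes of -0.43, -1.56, -2.22 and -0.88 (largest adjusted p = 3.9e-14). *GLC7*, the phosphatase that Reg1 directs, rose by 0.33, 0.12 and 0.54 in all but *elp3 tcd1* (-0.01, adjusted p = 0.8). Of the kinase genes upstream of Snf1, *TOS3* rose in all but *elp3 tcd1* and *ELM1* in all but *elp3 deg1*. *SIP2*, a beta subunit of the kinase complex, rose by 1.06, 0.54 and 1.24 in the first 3 mutants and gave 0.09 (adjusted p = 0.45) in *urm1 tcd1*.

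The Snf3-Rgt2 pathway senses external glucose for the hexose transporter genes. Of its 8 genes, 3 were lower and the other 5 not called in *elp3 deg1*, and 3 were higher and 3 lower in *urm1 deg1*, 2 and 3 in *elp3 tcd1*, and 2, with *RGT1* of chromosome XI as 1 of them, and 3 in *urm1 tcd1*. *YCK1*, a membrane-bound casein kinase of this pathway, fell in all 4 (-0.32, -0.49, -0.27 and -0.40). The 6 activators that act downstream of Snf1 had 1 higher and 3 lower in *elp3 deg1*, with 1 and 5 in *urm1 deg1*, 2 and 3 in *elp3 tcd1*, and 1 and 3 in *urm1 tcd1*. *CAT8*, which activates gluconeogenic genes, fell in all 4 (-1.08, -0.54, -0.52 and -0.86, largest adjusted p = 2.9e-05). *HAP4*, which activates respiratory genes and lies on chromosome XI, rose by 1.21 in *elp3 deg1* and 0.45 in *urm1 tcd1* and fell in *urm1 deg1* (-0.73) and *elp3 tcd1* (-1.18), the value in *urm1 tcd1* being below the median of that chromosome there.

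Among 11 tested of 12 glucose-repressed genes of sugar use, 5 were higher and 4 lower in *elp3 deg1*, with 4 and 5 in *urm1 deg1*, 5 and 4 in *elp3 tcd1*, and 2 and 6 in *urm1 tcd1*. *HXT5* and *GLK1*, a transporter and the glucokinase, rose in all 4 mutants, *HXT5* to a mean of 457 CPM in *elp3 tcd1* against 14.6 CPM in WT. *SUC2*, the invertase gene that is the textbook target of Mig1 and Cyc8-Tup1, fell in all 4, with means of 105, 109, 59.3 and 70.0 CPM in the mutants against 164 CPM in WT and log2 fold changes of -0.65, -0.62, -1.48 and -1.22 (largest adjusted p = 1.1e-12). *HXT2*, another transporter gene under glucose repression, fell in all 4 as well (-3.21, -2.65, -3.12 and -2.18).

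Among 14 glucose-repressed genes of nonfermentable carbon use, 3 were higher and 9 lower in *elp3 deg1* (median -0.867), 6 and 6 in *urm1 deg1* (0.221), 7 and 3 in *elp3 tcd1* (0.279) and 2 and 8 in *urm1 tcd1* (-0.450), where *JEN1* of chromosome XI was 1 of the 2. *ADH2*, *ICL1* and *MLS1*, for ethanol use and the glyoxylate cycle, were lower in *elp3 deg1* (-1.47, -1.14 and -0.96) and *urm1 tcd1* (-3.48, -0.92 and -1.20) and higher in *urm1 deg1* (0.59, 0.20 and 1.34) and *elp3 tcd1* (0.44, 0.42 and 1.55), all past the threshold. *CYB2*, the lactate dehydrogenase gene, rose in all 4 by 1.42, 1.60, 2.93 and 2.07. The list gave no direction that holds for all 4 mutants.

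Other repressors that recruit Cyc8-Tup1 had a median below 0 in each mutant, given as a description without a test. Of 8, 1 was higher and 6 lower in *elp3 deg1* (median -0.633), 7 were lower and 1 not called in *urm1 deg1* (median -0.835), 1 was higher and 6 lower in *elp3 tcd1* (median -0.492) and 2 and 4 in *urm1 tcd1* (median -0.295), beside 32.2% to 33.4% of all tested genes called lower and medians near 0 over all genes as given above. In *urm1 tcd1*, 1 of the 2 higher was *PHD1* of chromosome XI (0.32). *YAP6* and *CIN5*, related transcription factors with roles in salt stress, fell in all 4, *YAP6* to a mean of 6.22 CPM in *urm1 deg1* against 44.7 CPM in WT (-2.88, standard error 0.14, adjusted p = 4.5e-23) and *CIN5* to 5.15 against 22.6 CPM (-2.16, 0.17, adjusted p = 2.2e-15).

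**Figure D5:**
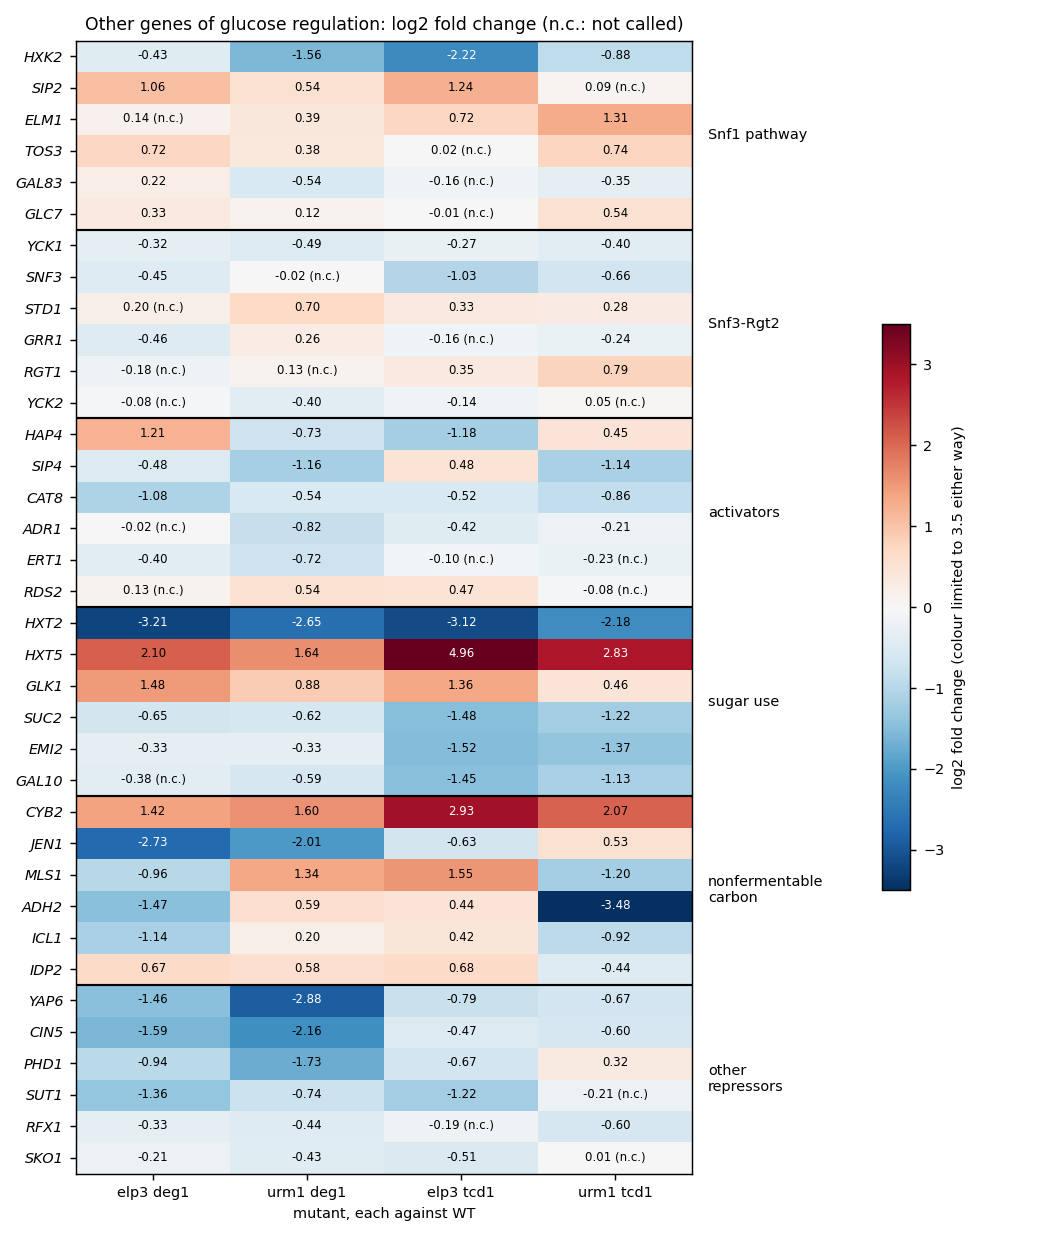
Log2 fold change against WT of the named genes of the 6 further lists, printed in each cell and coloured from blue (lower) to red (higher), with n.c. for genes not called. *HXK2*, *YCK1*, *CAT8*, *HXT2*, *SUC2*, *EMI2*, *YAP6* and *CIN5* are lower in all 4 mutants, and *HXT5*, *GLK1* and *CYB2* higher in all 4.

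Across the 18 libraries, the gene most like each member in log2 CPM was found by Pearson's r, as a description without a test, since libraries of a group share a strain and the r reflects the 5 groups. *NRG1* was most like *RGI1* (r = 0.982), *SNF4* most like *HEM15* (0.976), *MIG3* most like *YJR124C* (0.965) and *CYC8* most like *VRP1* (0.960). Among the members themselves, *CYC8* and *MIG3* were the most alike (0.951), and *CYC8* was the third most like gene of *MIG3* among all tested. *TUP1* and *NRG2* ran most in opposite directions (-0.840).

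The left-out libraries were compared with the 3 others of each *tcd1* label. The library labelled *elp3 tcd1* replicate 4 lay nearer to the mean of *urm1 tcd1* for 10 of 10 members, for example at 180 CPM for *MIG1*, against 126 to 132 CPM in the other *elp3 tcd1* libraries and 172 to 200 CPM in *urm1 tcd1*. That labelled *urm1 tcd1* replicate 4 lay nearer to *elp3 tcd1* for 9 of 10, with *SNF4* as the exception (114 CPM, against 106 to 110 CPM under its own label and 97.6 to 105 CPM in *elp3 tcd1*).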

How the data were processed

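Messenger RNA of 20 yeast samples was sequenced from stranded poly(A) libraries. Reads were aligned by the authors with STAR 2.5.1b to R64. The deposited values are raw read counts per gene, made per the file headers with featureCounts 1.4.6-p2 in reverse-strand mode, although the paper names htseq count. Replicate 4 of both *tcd1* labels was left out.

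The 18 other libraries (3273876 to 3926511 counts) were analysed in R 4.3.3 with edgeR 4.0.16: a minimum count of 10 (filterByExpr), TMM normalisation and the quasi-likelihood test, each mutant fitted with WT alone and mutants against each other in a joint fit. The threshold, a Benjamini-Hochberg adjusted p of 0.01 over 5849 genes, follows the study's. Standard errors are the log2 fold change over the root of its F statistic. The fits were tested on simulated data with far fewer changed genes than were called here, so false calls where most genes change were not tested. Alternatives were DESeq2 1.42.0, RLE, TMM without chromosome XI, no filter, a replicate block, a joint or separate fit, the left-out libraries included, and each replicate left out. Sequences come from the RefSeq R64 genome, where 6048 gene IDs matched and 6036 had the same start and end.

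All members are named. Of each further list at most 6 genes are, those called in the most mutants, ties broken by the median size of change. Likeness is the highest r of log2 CPM (prior count 2). Members and lists were chosen with earlier results of these data known.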

Additional observations from a re-analysis of the deposited data

Results flagged for a closer look

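For 6 members the difference between *elp3* and *urm1* strains was not the same beside *deg1* as beside the *tcd1* label, where *elp3 tcd1* kept *TCD1* reads, by the interaction test in edgeR, which called 67.6% of all tested genes. The differences of differences on the log2 scale were -1.44 for *NRG1*, -0.60 for *NRG2*, 0.58 for *MIG2*, -0.56 for *SNF1*, 0.38 for *SNF4* and 0.38 for *REG1*. In 1 of 30 sets of 4 libraries a library stood apart by Dixon's test, where chance gives 1.5: *NRG2* stood at 69.1 CPM in *urm1 deg1* replicate 1, against 73.8 to 74.8 CPM in the others.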

How the results depend on the processing

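Of 1800 member values under an alternative, 1743 kept their side of the threshold, 48 lost their call, 9 gained one and 0 called values turned direction. Some values that were not called changed sign, such as *NRG2* in *elp3 deg1* (-0.04, and 0.01 without *elp3 deg1* replicate 3). Replicate 4 of each *tcd1* label went against its label, as given above. It differed from the other libraries of its label by a chi-square of 52 to 64.9 per degree of freedom. Including these libraries moved most counts, also in *elp3 deg1* against *urm1 deg1*, which holds neither of them but comes from the joint fit. Genes higher and lower were then 871 and 845 in *elp3 tcd1* against WT, 995 and 907 in *urm1 tcd1* against WT, 1206 and 1097 in *elp3 deg1* against *urm1 deg1*, 1003 and 1078 in *elp3 deg1* against *elp3 tcd1*, and 987 and 954 in the interaction, and 1234 were higher in *urm1 deg1* against *urm1 tcd1*. Without these libraries, the same counts lay between 1751 and 2014. Between *elp3 tcd1* and *urm1 tcd1*, edgeR then called 0 and 0 genes (860 and 1047 at an unadjusted p under 0.05) and 0 and 0 members (0 and 1 at an unadjusted p under 0.05). Members higher were then 0 in *urm1 tcd1* against WT (edgeR, 1 at an unadjusted p under 0.05), 3 in *elp3 deg1* against *urm1 deg1* and 1 in the interaction. Members higher in *elp3 tcd1* against *urm1 tcd1* were 0 to 3 with a replicate left out and 2 in a fit of these libraries alone, where *CYC8* passed too (0.19, adjusted p = 0.0081). Members higher in the interaction were 3 to 5 with a replicate left out. The causes were not tested beyond the member values given above.

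A replicate block changed no member call. With it, 1933 genes were higher and 1944 lower in *elp3 deg1* against WT, 1931 and 1933 in *urm1 deg1*, 1751 and 1775 in *elp3 tcd1*, and 1881 and 1835 in *urm1 tcd1*. Same-numbered libraries did not deviate together (mean r = 0.00843 over 33 pairs, from -0.0717 to 0.101, and -0.00288 over 96 other pairs), and 4 of 18 libraries correlated best with their own number. No scaling moved the median of all genes by over 0.1. At 117 to 424 counts per library, *NRG2* and *MIG3* gave the widest intervals of the members.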
